A study of Mus musculus with 9 samples.

Results

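Collagens are the genes described here. Every probe of the array was taken whose symbol in the platform annotation is Col, a number, the letter a and a number, which gave 85 probes of 40 genes among 46643 probes and 19406 genes. Of the 40 genes, 11 encode fibrillar chains, 6 basement membrane chains and 7 chains of fibril-associated collagens (FACIT), and 16 belong to other classes. The rule reads names and no signals. *Col20a1*, *Col22a1*, *Col6a3* and *Col6a5* had no probe under their symbols in this annotation and are not analysed here.

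Expression had been measured on Illumina MouseWG-6 bead arrays during neural differentiation of a mouse embryonic stem cell (mESC) line that the labels call G6B-2, and the study asked which genes mark each stage and respond to retinoic acid (RA). There were 9 arrays, numbered by day of differentiation (DoD). DoD 0 was the undifferentiated line and DoD 2 its floating aggregates, called embryoid bodies (EBs), neither of which had received RA or vehicle. On DoD 8, 4 EB cultures were measured: a vehicle control (C) and cultures given RA at 1 nM (R9), at 10 nM (R8) or at 100 nM (R7). On DoD 36, the neural cultures grown on from C, from R8 and from R7 were measured. RA or vehicle, given as 0.1% ethanol in the labels and as another solvent in the series text, was present from DoD 2 to DoD 6 only. The last stage is called DoD 36 here, and its sample labels give day 29 instead. All 9 arrays come from the same line. Each condition is 1 array, on which, by the paper's methods, RNA mixed from several biological replicates was hybridised. The R9 culture is known from its label alone. Differences between conditions therefore stand without replicates, and p-values are not given. EBs were plated on DoD 8 on dishes coated with laminin, itself a basement membrane protein, and the DoD 36 cultures had grown on that coating.

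As background, a collagen molecule is made of chains that wind around each other into a rope-like helix, and many types need chains of different genes. Type I (*Col1a1* with *Col1a2*), type III (*Col3a1*) and type V (*Col5a1* with *Col5a2*) form the striped fibrils of skin, tendon and other connective tissue. Type IV chains (*Col4a1* to *Col4a6*) form the sheet of the basement membrane, and FACIT chains sit on the surface of fibrils. In the brain and spinal cord, collagen lies mainly in the meninges, in vessel walls and in the basement membranes around vessels, while neurons and glia are known for a matrix poor in fibrils.

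Values are signals recovered from the deposited log2 values and scaled between arrays, in signal units in which a gene counted as detected at 30.7 or more. A difference is the log2 of 1 array over another, 2-fold (1 on the log2 scale) is what is called higher or lower, and a difference that has 1 array under the detection level is a bound, written with "at least" or "at most". The least treated pair, R9 and C of DoD 8, gave a scale for error. Between them, log2 differences had a robust SD of 0.563 for genes at signals of 31.2 to 68.6, where 7.82% of genes passed 2-fold, and 0.147 at signals of 4268.7 to 22599.4, where 0.07% did. The 0.99 quantile of background signal was 24.1 to 36.1 on 7 arrays, 50.7 on DoD 36 R8 and 63.1 on DoD 36 R7. On DoD 36 R7, 7 of the 30 detected collagen genes (*Col2a1*, *Col5a3*, *Col11a2*, *Col24a1*, *Col9a2*, *Col10a1* and *Col25a1*) lay under that array's own quantile, and on DoD 36 R8 5 of 30 did. Levels of different probes are not on a common scale and are not compared. The stage labels were checked on marker genes outside the family: *Pou5f1*, a pluripotency factor, had a signal of 26639.7 on DoD 0 and 140.3 to 292.0 on DoD 36, and *Gfap*, the astrocyte filament protein, had 25398.1 on DoD 36 R7 and under the detection level on the arrays of DoD 0 to DoD 8. The mESC markers were mixed. Of 5, 3 were lower and 1, *Klf4*, was higher on C of DoD 36 than on C of DoD 8. Of all genes, 16.8% were lower and 22.7% higher there. *Klf4* had 991.2 on DoD 0 and 5447.5, 4515.5 and 2575.2 on C, R8 and R7 of DoD 36. *Zfp42* had 59.2 on DoD 0 and 109.3, 15.7 and 8.2 on those arrays. Of 5 neuron markers, 3 of 4 measured (*Dcx*, *Snap25* and *Elavl3*) were higher on the C array of DoD 36 than on that of DoD 8, and the neuronal tubulin *Tubb3* was within 2-fold (0.33).

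More collagen genes than genes in general were detected somewhere in the series, and fewer were detected throughout. By the probe used for each gene, 36 of the 40 (90.0%) were detected on at least 1 array, against 75.8% of all genes, and 14 (35.0%) on all 9 arrays, against 49.5%, while *Col9a3*, *Col19a1*, *Col6a4* and *Col6a6* were detected on none. The number detected was 21 on DoD 0, 24 on DoD 2, 27, 24, 25 and 28 on C, R9, R8 and R7 of DoD 8, and 29, 30 and 30 on C, R8 and R7 of DoD 36. Over all probes it was 22077 on DoD 0, 21876 to 22428 on DoD 8 and 21117, 21978 and 21398 on DoD 36. Of the collagen genes detected on DoD 36, 3, 5 and 7 lay under the own background quantile of C, R8 and R7, against 0 on each DoD 8 array. The higher collagen counts on DoD 36 than on DoD 8 thus depended on the fixed detection level. Of the 36 detected genes, 17 had their highest signal on DoD 36 R7, where 12.5% of all detected genes had theirs. The array of 100 nM RA at the last stage was therefore the array on which more collagen chains peaked than on any other. Another 5 chains peaked on DoD 0, where 21.6% of all detected genes had their highest signal. Among these 5, *Col4a4*, *Col9a1* and *Col25a1* had only 35.3, 48.6 and 61.7 there.

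**Figure D1:**
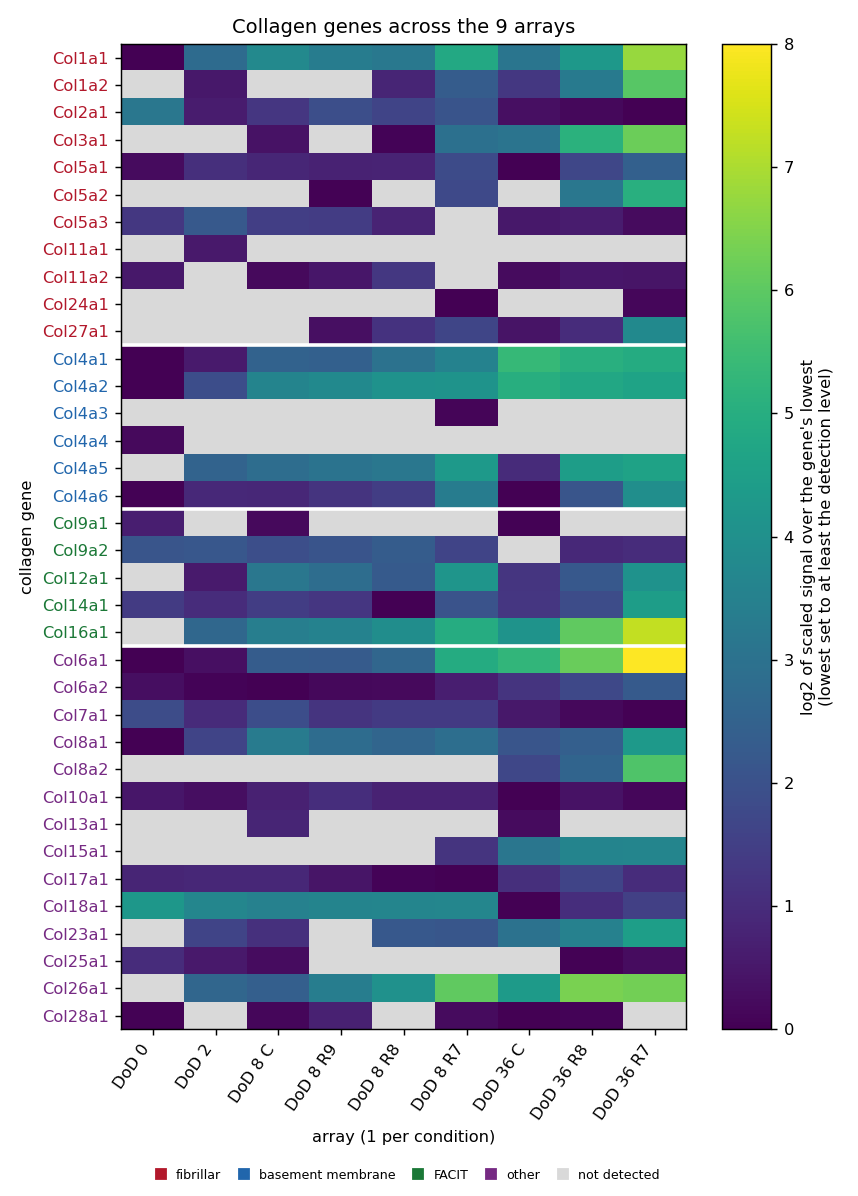
Log2 of the scaled signal over the gene's lowest array (set to at least the detection level) for the 36 collagen genes detected on at least 1 array (rows, coloured by class) on the 9 arrays (columns), with values under the detection level in grey. The last column, DoD 36 R7, is the brightest for 17 genes, and *Col18a1* is bright on the first 6 arrays and dark on the last 3.

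Most fibrillar chains were highest at the last stage with 100 nM RA. In this and the following paragraphs, signals are listed for DoD 0, then DoD 2, then C, R9, R8 and R7 of DoD 8, then C, R8 and R7 of DoD 36. *Col1a1*, the main chain of type I collagen, had signals of 75.6, 527.6, 1020.9, 781.8, 695.0, 2138.8, 646.6, 1446.9 and 8182.4. Its partner *Col1a2* had 8.1, 43.5, 7.1, 13.4, 54.8, 154.0, 76.1, 296.5 and 1845.5. Both type I genes were thus highest on DoD 36 R7, at 12.7 times the C array for *Col1a1* and 24.2 times for *Col1a2*, but *Col1a1* was detected from DoD 0 on, and *Col1a2* was under the detection level on DoD 0 and on the C and R9 arrays of DoD 8. *Col3a1*, the chain of type III collagen, had 5.7, 5.2, 40.0, 13.5, 32.4, 235.6, 261.8, 1067.9 and 2252.5. The type V chain *Col5a1*, which helps to start fibrils, had 1455.8, 2638.3, 2283.6, 2140.2, 2148.1, 4402.0, 1249.1, 4080.2 and 6776.8, and its partner *Col5a2* had 5.7, 5.2, 14.6, 32.0, 24.7, 104.3, 26.1, 279.0 and 1014.7. *Col5a1* was thus already far above the detection level in mESCs, whereas *Col3a1* and *Col5a2* were not detected there. *Col27a1*, a fibrillar chain of cartilage, had 23.5, 10.8, 5.0, 38.4, 69.8, 98.3, 40.9, 62.1 and 426.4.

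The remaining 5 fibrillar genes stayed low or went the other way. *Col2a1*, the type II chain of cartilage, had its highest signal on DoD 0 (499.9), 84.0 to 232.7 on DoD 2 and DoD 8, and 69.4, 62.7 and 55.1 on C, R8 and R7 of DoD 36. *Col5a3*, the third chain of type V collagen, had between 22.8 (DoD 8 R7) and 144.9 (DoD 2), *Col11a2* between 23.3 and 75.4, and *Col11a1* and *Col24a1* passed the detection level on 1 and 2 arrays with at most 44.6 and 34.1 by the probes used, while another probe of *Col11a1* reached 49.0 on DoD 0. The partners of type XI collagen, *Col2a1*, *Col11a1* and *Col11a2*, did not share the peak on DoD 36 R7. *Col3a1* has a second, dimmer probe that had 35.7, 94.0 and 45.1 on C, R8 and R7 of DoD 36, so that the step from R8 to R7 was 1.08 with the probe used and -1.06 with the dimmer one.

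**Figure D2:**
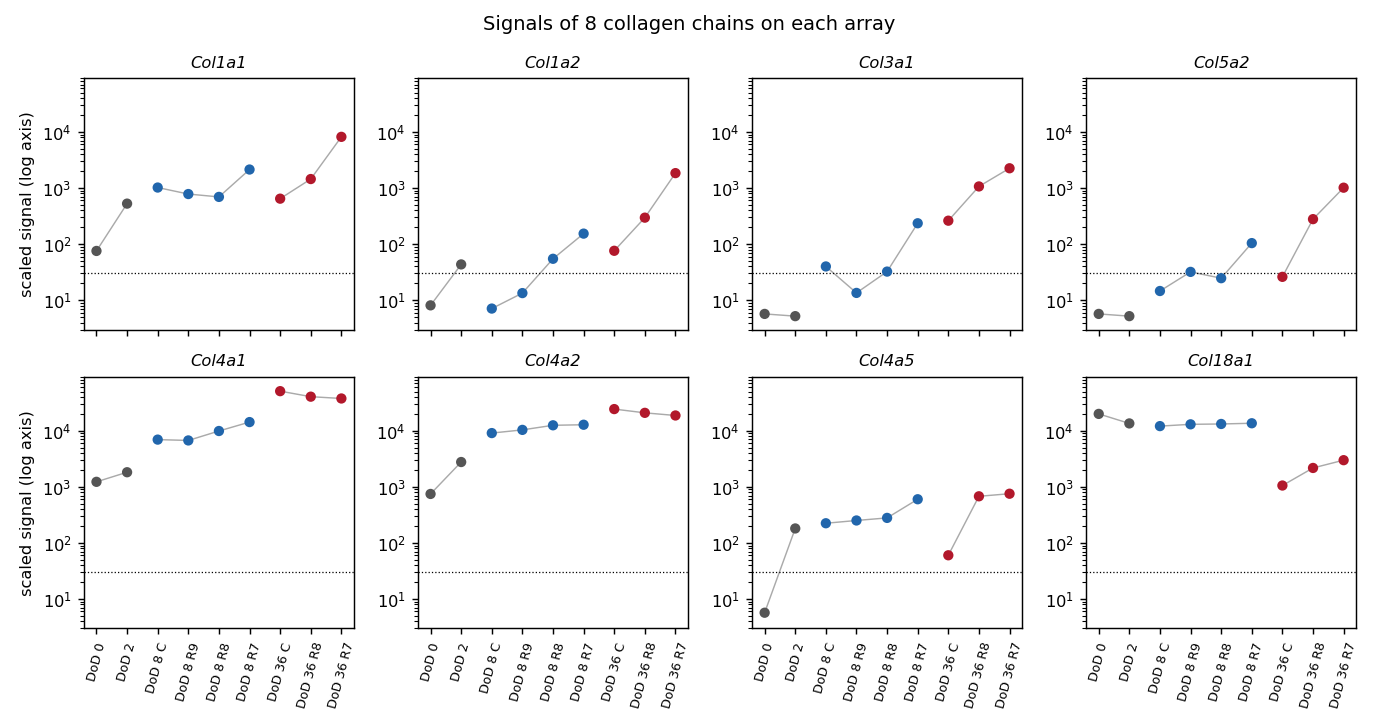
Scaled signal (log axis) of 8 collagen chains on each of the 9 arrays, 1 point per array and condition (grey DoD 0 and DoD 2, blue DoD 8, red DoD 36), with the dotted line at the detection level of 30.7. The fibrillar chains of the upper panels end at their highest value on DoD 36 R7, *Col4a1* and *Col4a2* have their highest value in this scaling on DoD 36 C, and *Col18a1* falls from 13613.5 on DoD 8 R7 to 1056.7 on DoD 36 C.

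The bases just before the start of *Col1a2* and of *Col3a1* are shown because these chains were among those highest with 100 nM RA while their promoters differ in make-up. The sequences are from RefSeq (GRCm38.p6), and capitals mark 4 motifs searched on both strands. These were GGGCGG, the core of the site of Sp1-type factors, then CCAAT and the TATA motif TATAAA, and lastly AGGTCA, a core element that RA receptors can bind. The 250 bases before *Col1a2* lie at chr6:4505368-4505617 on the plus strand and hold 2 copies of GGGCGG and 1 of CCAAT. Those before *Col3a1* lie at chr1:45311288-45311537 on the plus strand and hold 1 TATAAA.
Col1a2: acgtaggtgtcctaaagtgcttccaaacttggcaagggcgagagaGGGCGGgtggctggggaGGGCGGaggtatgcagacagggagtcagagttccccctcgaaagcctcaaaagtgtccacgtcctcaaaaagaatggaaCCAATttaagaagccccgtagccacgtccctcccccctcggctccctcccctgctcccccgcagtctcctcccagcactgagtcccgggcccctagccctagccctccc
Col3a1: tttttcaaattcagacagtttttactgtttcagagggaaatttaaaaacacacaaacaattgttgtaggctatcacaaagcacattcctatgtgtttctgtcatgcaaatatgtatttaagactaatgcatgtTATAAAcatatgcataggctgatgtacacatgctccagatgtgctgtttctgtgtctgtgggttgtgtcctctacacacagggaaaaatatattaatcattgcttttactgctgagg
Of these 250 bases, G and C made up 62.0% before *Col1a2* and 35.2% before *Col3a1*. RefSeq windows matched 32 of the 40 genes by symbol, in 35 windows. GGGCGG occurred in 21 of the 35 (60.0%), against 32.7% of all 32851 windows, and the median share of G and C was 59.6% against 52.4%. The other motifs occurred about as often as in all windows: CCAAT in 37.1% against 33.8%, TATAAA in 14.3% against 12.4% and AGGTCA in 17.1% against 14.0%. A match of letters is a description and not a bound site.

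The main basement membrane chains followed another course. *Col4a1* had signals of 1229.6, 1823.1, 6957.0, 6723.9, 9904.7, 14288.1, 50857.8, 40545.6 and 37648.6, and *Col4a2*, which joins it in the most widespread type IV collagen, had 747.5, 2772.4, 9096.7, 10373.5, 12520.2, 12811.1, 24361.1, 20878.1 and 18729.9. Both had their highest value on the vehicle array of DoD 36. Their log2 differences of R7 against C on DoD 36, -0.43 and -0.38, were however under 2-fold and turned to 0.03 and 0.08 without scaling and to 0.23 and 0.14 with quantile normalization, so that the order of the DoD 36 arrays depended on the scaling. Against C of DoD 8, C of DoD 36 was higher by 2.87 for *Col4a1*, or 1.94 with quantile normalization, and by 1.42 for *Col4a2*, or 0.86 with quantile normalization, which is under 2-fold. The levels of both were recovered only approximately, and the differences between arrays do not depend on that. The pair is transcribed in opposite directions from neighbouring starts on chromosome 8, and the starts in the promoter table lie 21 bases apart, and the annotated genes overlap at their 5′ ends. These 22 bases are shown because both genes share them, at chr8:11312805-11312826 (GRCm38.p6, plus strand), with GGGCGG in capitals.
Col4a1 and Col4a2: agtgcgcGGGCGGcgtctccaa
*Col4a5* and *Col4a6* form another such pair, on chromosome X with starts 1343 bases apart. They encode chains of a type IV collagen found in smooth muscle, and their courses differed from those of *Col4a1* and *Col4a2*. *Col4a5* had 5.7, 181.3, 224.5, 251.5, 279.6, 601.4, 60.3, 678.9 and 754.5, and *Col4a6* had 61.7, 113.0, 110.6, 137.7, 164.6, 607.1, 59.7, 256.9 and 926.6. On DoD 36 both were low on C, next to their lowest or at it, and higher with R8 and R7, by 3.49 and 3.64 for *Col4a5* and by 2.11 and 3.96 for *Col4a6*. A second probe of *Col4a5* had 72.2, 237.6 and 615.6 on the same arrays. Another probe of *Col4a6* had 13.5, 14.8 and 159.2 there, a further probe 5.6, 33.1 and 4.1, and the remaining probe was detected on no array. The *Col4a6* difference with R8 thus depended on the probe. The kidney and lung chains *Col4a3* and *Col4a4* passed the detection level on 1 array each, with 33.3 (DoD 8 R7) and 35.3 (DoD 0).

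Among the FACIT chains, *Col16a1* had signals of 30.5, 194.6, 327.7, 359.9, 460.8, 945.2, 534.9, 2041.4 and 4757.6. *Col12a1* and *Col14a1*, which decorate type I fibrils, had 11.9, 45.7, 278.1, 223.2, 147.8, 550.4, 71.9, 141.1 and 515.1, and 89.4, 69.1, 92.9, 82.1, 34.1, 141.0, 81.2, 124.6 and 739.5. All 3 were higher on R7 than on C of DoD 36, by 3.15, 2.84 and 3.19, and *Col12a1* had close values on DoD 8 R7 and DoD 36 R7. A second probe of *Col14a1* gave a steeper course, with 8.6, 334.5 and 1822.5 on C, R8 and R7 of DoD 36. The type IX chains of cartilage stood apart: *Col9a1* was detected on 3 arrays with at most 48.6 by the probe used and on R8 and R7 of DoD 36, with 37.1 and 64.2, by another probe, *Col9a3* on none, and *Col9a2* had 95.5 to 153.6 on the 6 arrays up to DoD 8 and 5.6, 58.4 and 62.2 on C, R8 and R7 of DoD 36. The last value lies under the background quantile of its array, so the *Col9a2* difference of at least 1.02 with R7 on DoD 36 is close to background.

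Of the other classes, *Col6a1*, a chain of the beaded filaments around cells, ran over 7.99 on the log2 scale, the widest range among the 40 genes when undetected values were set to the detection level. Its signals were 49.0, 62.1, 248.1, 238.6, 305.8, 1475.4, 1869.1, 3507.5 and 12423.7, and a second probe ran from 41.2 on DoD 0 to 5943.3 on DoD 36 R7, while the remaining probe was detected on 2 arrays only, with 52.1 on DoD 36 R8 and under the detection level on DoD 36 R7. Its partner *Col6a2* had 69.5, 59.4, 56.3, 63.4, 65.1, 90.6, 130.1, 187.5 and 271.1, and a second probe of *Col6a2* that was under the detection level up to DoD 8 R8 had 148.5 on DoD 8 R7 and 434.3, 466.6 and 1962.5 on DoD 36. Both type VI genes were thus highest on DoD 36 R7 with the 4 brighter probes, 2 a gene, and the size for *Col6a2* depended on the probe. *Col8a1* and *Col8a2*, the network chains of vessel walls and of the cornea, had 62.6, 195.2, 630.0, 442.1, 381.8, 462.5, 269.6, 338.8 and 1269.7, and 5.7, 5.2, 5.0, 5.3, 5.2, 20.9, 99.3, 182.1 and 1692.5. *Col8a2* was detected on the DoD 36 arrays only, whereas *Col8a1* was detected on all 9. *Col26a1* had 20.4, 190.6, 164.6, 325.1, 510.6, 2043.3, 626.9, 2551.6 and 2395.8, and *Col23a1*, a chain that spans the cell membrane, had 17.0, 96.3, 66.3, 16.3, 141.7, 135.9, 246.3, 352.7 and 690.8.

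*Col18a1*, a basement membrane collagen of another class whose end fragment is endostatin, took the opposite course to *Col4a1*. Its signals were 19993.1, 13521.7, 12110.9, 13029.5, 13219.2, 13613.5, 1056.7, 2173.0 and 2990.4, highest in mESCs and 11.5 times lower on the C array of DoD 36 than on that of DoD 8. Its relative *Col15a1* was detected on 4 arrays only, with 71.3 on DoD 8 R7 and 272.5, 373.5 and 378.8 on DoD 36. *Col7a1*, the anchoring fibril of skin, had 320.3 to 598.9 up to DoD 8 and 229.9, 182.3 and 160.2 on DoD 36. The skin and cartilage chains *Col17a1* and *Col10a1* ran from 64.5 to 199.0 and from 37.7 to 78.5, and *Col13a1*, *Col25a1* and *Col28a1* reached at most 54.3, 61.7 and 51.0 by the probes used, with up to 65.6 for *Col25a1* and 53.0 for *Col28a1* by other probes.

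Up to DoD 8 without RA, the collagen genes that differed were nearly all higher at the later stage. From DoD 0 to DoD 2, 7 of 28 measured collagen genes were at least 2-fold higher and 1 was lower, against 6.3% higher and 4.59% lower of all genes, and the median difference was 0.42 against -0.07 over all genes. The higher ones were led by *Col1a1* (2.80), *Col16a1* (at least 2.66), *Col26a1* (at least 2.63) and *Col4a5* (at least 2.56), and *Col2a1* was lower (-2.57). On the C array of DoD 8, compared with DoD 2, 5 of 29 were higher and 0 lower, against 6.03% and 4.62% of all genes. These were *Col12a1* (2.61), *Col6a1* (2.00), *Col4a1* (1.93), *Col4a2* (1.71) and *Col8a1* (1.69). A bulk array cannot tell more cells of a kind from more RNA per cell, here or in any comparison that follows.

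From the C array of DoD 8 to that of DoD 36, collagen genes went both ways. Of 31 measured genes, 10 were higher and 6 lower, against 22.7% and 16.8% of all genes, so that the collagen shares were 32.3% and 19.4%, and the median was -0.15 against 0.12. Higher by most were *Col15a1* (at least 3.15), *Col6a1* (2.91), *Col4a1* (2.87) and *Col3a1* (2.71), and lower by most were *Col18a1* (-3.52), *Col12a1* (-1.95), *Col9a2* (at most -1.92) and *Col4a5* (-1.90). The *Col1a1* difference was -0.66.

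On DoD 8, 13 of 33 measured collagen genes were higher with 100 nM RA, and at most 4 passed 2-fold upwards with a lower dose. With R9, 0 of 29 were higher and 1, *Col23a1* (at most -1.11), was lower, against 2.02% and 1.49% of all genes. With R8, 4 of 29 were higher, namely *Col26a1* (1.63), *Col27a1* (at least 1.18), *Col11a2* (1.10) and *Col23a1* (1.09), and *Col14a1* (-1.45) was lower, against 3.05% and 2.01% of all genes. By its least differing measured probe, the *Col27a1* difference with R8 was at least 0.09. The other probe of *Col11a2* was under the detection level on both arrays. The other probes of *Col26a1* were under it on every array. With R7, 13 were higher and 1 was lower, against 5.51% and 3.17%, and the median was 0.68 against -0.04 over all genes. *Col26a1* (3.63), *Col6a1* (2.57), *Col3a1* (2.56) and *Col4a6* (2.46) led, and *Col5a3* (at most -1.50) was lower. By class, 5 of 10 measured fibrillar genes, 3 of 5 basement membrane genes, 1 of 5 FACIT genes and 4 of 13 others were higher, and the class medians were 1.01, 1.04, 0.60 and 0.08.

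Set against R8 in place of C, R7 on DoD 8 was higher in 13 of 30 collagen genes and lower in 1, against 3.72% and 2.39% of all genes. *Col3a1* (2.86), *Col6a1* (2.27), *Col14a1* (2.05) and *Col26a1* (2.00) led, and *Col11a2* (at most -1.30) was lower. Another probe of *Col11a2* went the other way, with 14.8 on R8 and 42.2 on R7, so the lower call depended on the probe. These comparisons share arrays with those against C, and their counts are therefore not separate evidence.

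On DoD 36, long after RA had been withdrawn on DoD 6, the collagen genes that passed 2-fold against C were all higher. With R8, 10 of 32 were higher and 0 lower, against 11.4% and 8.28% of all genes. *Col4a5* (3.49), *Col5a2* (at least 3.18), *Col4a6* (2.11) and *Col26a1* (2.03) led. With R7, 19 of 33 were higher and 0 lower, against 13.3% and 11.6% of all genes, and the median was 1.49 against -0.28 over all genes. *Col5a2* (at least 5.05), *Col1a2* (4.60), *Col8a2* (4.09) and *Col4a6* (3.96) led. The other probes of *Col5a2* were under the detection level on every array. A second probe of *Col8a2* had 33.1 on DoD 36 R7, under that array's background quantile, and gave a difference of at least 0.11. Of the other marker chains, *Col1a1* was higher by 3.66, *Col3a1* by 3.11, *Col6a1* by 2.73 and *Col5a1* by 2.44. The robust SD of the R9 and C pair of DoD 8 was 0.147 to 0.373 for these 8 genes. It was read at signals between those of C and R7 on DoD 36. By signal on C alone, *Col1a2* (76.1) and *Col8a2* (99.3) fell where that SD was 0.456, and *Col4a6* (59.7) where it was 0.563. The background quantile was 26.8 and 30.7 on C and R9 of DoD 8, but 36.1 and 63.1 on C and R7 of DoD 36. The error of the DoD 36 differences was therefore not measured and may be larger than this SD.

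The scaling of the arrays mattered for all genes at this stage. Of all genes past 2-fold with R7 on DoD 36, 53.3% were higher in the scaling used and 85.1% without scaling, while scaling to the 0.75 quantile of all probes left 1433 higher and 2547 lower. With R8 the share that was higher was 58.0%, 80.7% without scaling and 37.9% with the 0.75 quantile. The median over all genes with R7 moved from -0.28 to 0.16 and -0.48 in the same settings. The number of collagen genes higher with R7 was 17 to 19 and the number lower 0 under each of these scalings, and the collagen median stayed 1.27 to 1.96. Of all measured genes, 13.3% were higher in the scaling used, 19.5% without scaling, 11.2% with the 0.75 quantile and 12.8% with quantile normalization. The shares lower were 11.6%, 3.4%, 19.9% and 8.9%.

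**Figure D3:**
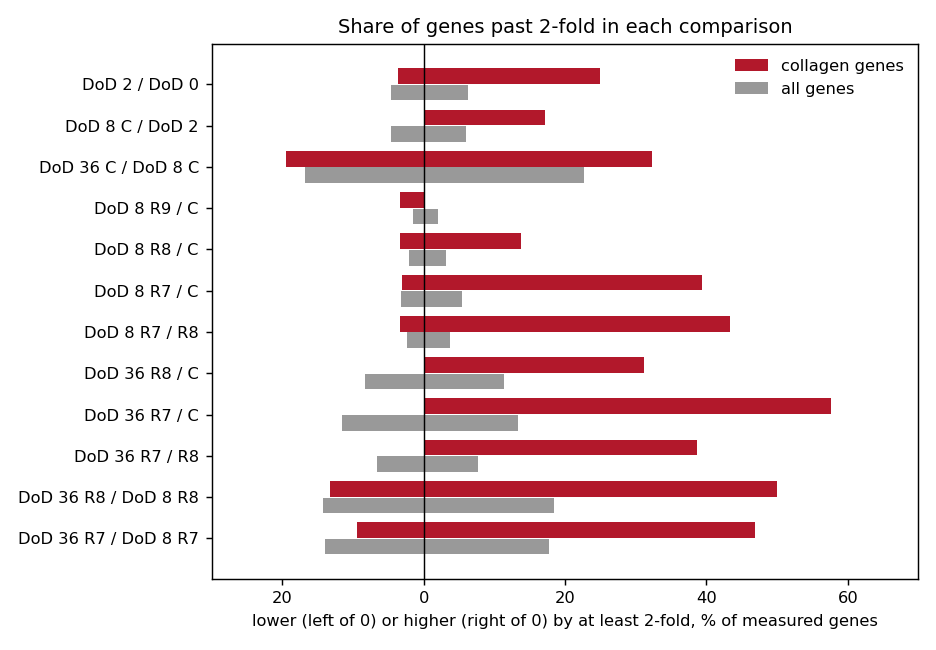
Share of measured genes at least 2-fold lower (left of 0) or higher (right of 0) in each of 12 comparisons, for collagen genes (red) and all genes (grey). For DoD 36 R7 against C the collagen bar reaches 57.6% higher and 0.0% lower, and the bar of all genes 13.3% and 11.6%.

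By class, R7 on DoD 36 was higher in 6 of 10 measured fibrillar genes with a median of 2.77, in 2 of 4 basement membrane genes with 1.63, in 4 of 5 FACIT genes with 2.84 and in 7 of 14 others with 0.77. The 4 basement membrane genes split into *Col4a5* and *Col4a6*, which were higher, and *Col4a1* and *Col4a2*, which stayed within 2-fold. Against R8, R7 was higher in 12 of 31 collagen genes and lower in 0, against 7.66% and 6.56% of all genes, led by *Col8a2* (3.22), *Col27a1* (2.78), *Col1a2* (2.64) and *Col14a1* (2.57).

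**Figure D4:**
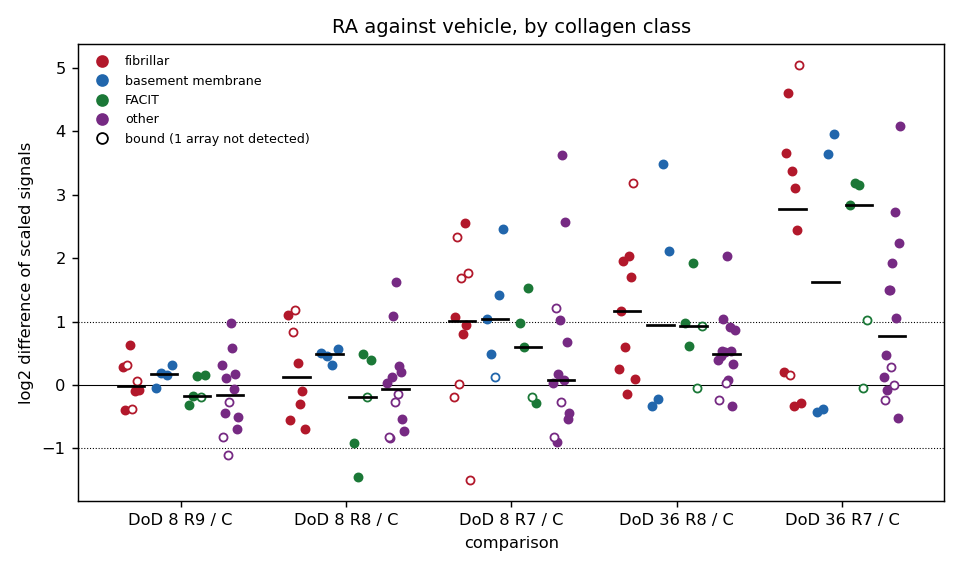
Log2 difference of RA against vehicle for each measured collagen gene in 5 comparisons (x axis), coloured by class, with open points for bounds, black lines at class medians and dotted lines at 2-fold. The medians of the fibrillar class are -0.01 with R9 and 0.13 with R8 on DoD 8, 1.01 with R7 on DoD 8 and 2.77 with R7 on DoD 36.

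The order of the doses was read as well. Of 33 collagen genes detected on at least 1 of the 3 arrays, 20 were in rising order from C to R8 to R7 on DoD 36, against 15.7% of all genes, and 4 (*Col2a1*, *Col4a1*, *Col4a2* and *Col7a1*) were in falling order, against 30.9%. On DoD 8, 12 of 33 were in rising order, against 15.8% of all genes, and 3 (*Col5a3*, *Col7a1* and *Col17a1*) in falling order, against 19.2%. *Col1a2*, *Col27a1*, *Col4a5*, *Col4a6*, *Col16a1*, *Col6a1*, *Col6a2* and *Col18a1* were in the rising order at both stages by the probes used. The *Col18a1* steps on DoD 8 were small (0.13 for R8 against C and 0.04 for R7 against R8). A second, dimmer probe of *Col18a1* had 74.7, 23.9 and 23.8 on C, R8 and R7 of DoD 8 and was undetected on DoD 36. Without scaling, the falling order on DoD 36 did not hold for *Col2a1*, *Col4a1* and *Col4a2*, whose differences of R7 against C were then 0.13, 0.03 and 0.08. Values under the detection level were set to it, and steps of any size counted in these orders, down to sizes within the error of the R9 and C pair.

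Between DoD 8 and DoD 36 of the same dose, 15 of 30 collagen genes were higher and 4 lower with R8, against 18.5% and 14.2% of all genes, and 15 of 32 were higher and 3 lower with R7, against 17.8% and 13.9%. With R8 the largest was *Col3a1* (5.04), ahead of *Col15a1* (at least 3.60), *Col6a1* (3.52) and *Col5a2* (at least 3.18), and *Col18a1* (-2.60), *Col2a1* (-1.45), *Col9a2* (-1.40) and *Col7a1* (-1.18) were lower. With R7 *Col8a2* (at least 5.78), *Col1a2* (3.58), *Col5a2* (3.28) and *Col3a1* (3.26) led, and *Col18a1* (-2.19), *Col2a1* (-2.08) and *Col7a1* (-1.36) were lower. *Col18a1*, *Col2a1* and *Col7a1* were thus lower at the last stage with both doses.

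The genes that fold, modify or export collagen in the cell were mostly higher at the last stage without RA, and most were within 2-fold of that level with RA. Of 17 such genes with a probe, 15 were higher on the C array of DoD 36 than on that of DoD 8 and 0 lower, against 22.7% and 16.8% of all genes, with a median of 2.01. *P3h2*, a prolyl 3-hydroxylase (4.89), *Colgalt2*, a collagen galactosyltransferase (3.66), *P4ha2*, a subunit of prolyl 4-hydroxylase (2.76), and *P4ha3* (at least 2.74) led. *Serpinh1*, the collagen chaperone Hsp47, had 7222.0 on the C array of DoD 8 and 25580.7, 19914.8 and 17005.3 on C, R8 and R7 of DoD 36. With R7 on DoD 36, where 13.3% of all genes were higher than on C and 11.6% lower, 2 of the 17 were higher, *P3h3* (2.01) and *P4ha3* (1.06), and 4 were lower, *Colgalt2* (-2.01), *Mia3* (at most -1.48), *Plod2*, a lysyl hydroxylase (-1.23), and *Colgalt1* (-1.02). The list's median of -0.90 there was -1.12 with arrays scaled to the 0.75 quantile, with 10 genes lower, and -0.43 without scaling, with 2 lower. *Mia3* had 85.9 on C and 30.7 on R7 of DoD 36, the latter under that array's background quantile of 63.1.

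Several genes that act on collagen outside the cell were higher with R7 on DoD 36. Of the lysyl oxidases, which cross-link fibrils, *Lox* had 640.1 and 1479.8 on C and R7 of DoD 8 and 469.3, 2124.8 and 5330.9 on C, R8 and R7 of DoD 36. *Loxl1* had 465.3, 1633.9 and 4826.5 on the DoD 36 arrays, and *Loxl2* went the other way with 6429.3, 2294.1 and 2070.3. *Pcolce*, which enhances the removal of the propeptide, had 757.4, 1688.4 and 3730.6, so that 3 of 6 measured genes of cleavage and cross-linking (*Lox*, *Loxl1* and *Pcolce*) were higher with R7 and 1 (*Loxl2*) lower, against 13.3% and 11.6% of all genes. On DoD 8, 1 of 7 (*Lox*) was higher with R7 and 2, *Pcolce2* (-1.57) and *Loxl4* (-1.23), were lower, against 5.51% and 3.17% of all genes. The median of the 7 there was -0.06. Of 5 measured genes of collagen breakdown, *Ctsk* (2.55), *Mmp2* (1.74) and *Mmp14* (1.73) were higher with R7 on DoD 36 and 0 were lower, against 13.3% and 11.6% of all genes. *Mmp2*, a gelatinase, had 1235.8 and 5028.5 on C and R7 of DoD 8 and 7398.7, 7998.0 and 24734.7 on DoD 36. Of 5 measured collagen receptors, *Itga11*, an integrin subunit (1116.9 on R7 and 184.2 on C), *Ddr2*, a receptor kinase (1.68), and *Mrc2*, an uptake receptor (1.42), were higher with R7 and 0 were lower, again against 13.3% and 11.6%.

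**Figure D5:**
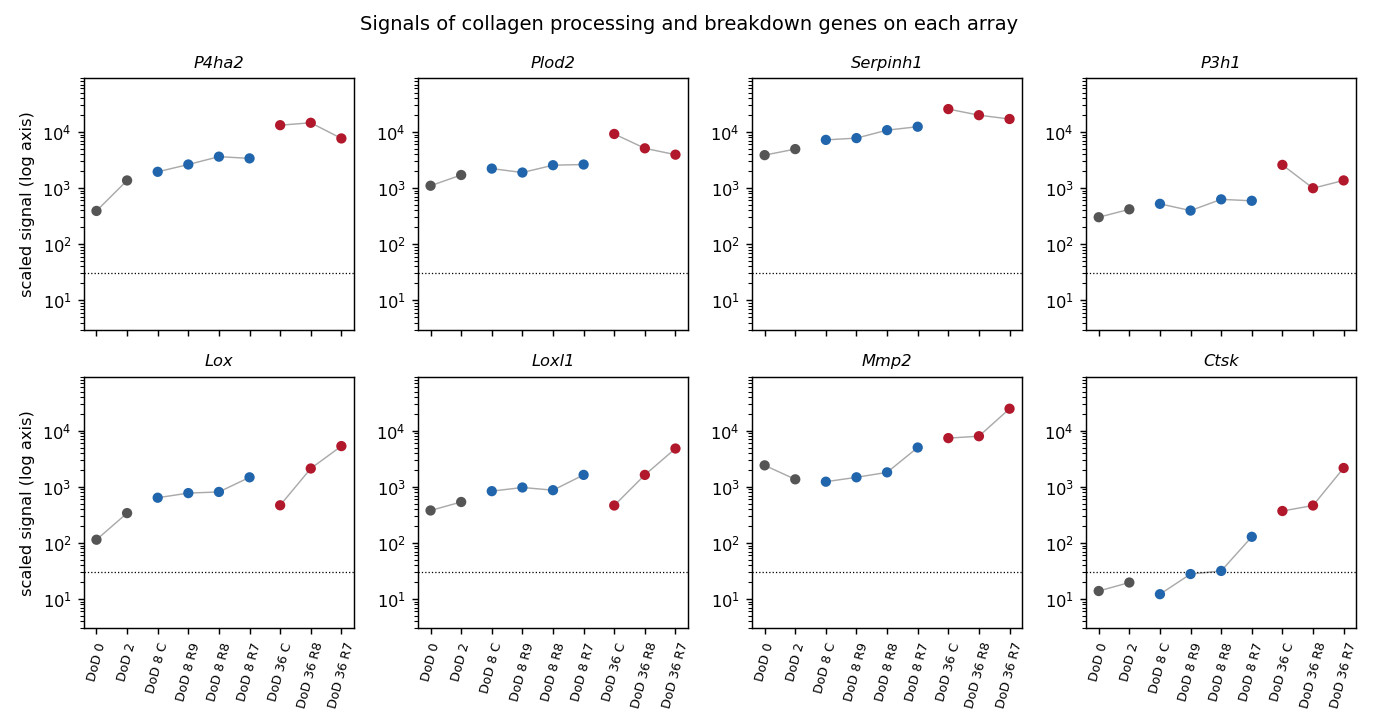
Scaled signal (log axis) of 4 genes of collagen folding and modification (upper panels) and of 4 genes of cross-linking and breakdown (lower panels) on each of the 9 arrays, 1 point per array, with the dotted line at the detection level of 30.7. *Serpinh1* is highest on DoD 36 C (25580.7), and *Lox*, *Loxl1*, *Mmp2* and *Ctsk* are highest on DoD 36 R7.

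Partners of type IV collagen in the basement membrane went both ways at the last stage, and more were higher than lower. On the C array of DoD 36 against that of DoD 8, 5 of 9 were higher, namely the laminin chains *Lamb1* (4.44), *Lama1* (at least 3.23) and *Lamc1* (2.99) and the nidogens *Nid1* (4.07) and *Nid2* (1.39), which link laminin to type IV collagen. This stands against 22.7% of all genes higher and 16.8% lower, and 2, *Lama5* (-1.14) and *Hspg2* (-1.06), were lower. With quantile normalization, 5 were higher and 3 lower, against 20.6% and 17.4% of all genes. Between DoD 8 and DoD 36 with R8, 4 of 9 were higher and 2 lower, against 18.5% and 14.2% of all genes. With R7, 4 of 9 were higher and 0 lower, against 17.8% and 13.9%. On DoD 36, with R7 against C, 0 were higher and 1, *Lama1* (-1.27), was lower, against 13.3% and 11.6% of all genes. The median there was -0.25, and 0.21 without scaling.

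Markers of other cell types differed in the same comparisons. Their summed signals add probes that are not on a common scale, so that a bright gene can carry a sum. The counts below stand beside these shares of all genes. With R7, 5.51% were higher and 3.17% lower on DoD 8, and 13.3% and 11.6% on DoD 36. On C of DoD 36 against C of DoD 8, 22.7% were higher and 16.8% lower. Of 8 mesenchyme markers, 5 of 7 measured were higher with R7 on DoD 8 (median 1.62) and 6 of 8 with R7 on DoD 36 (median 1.90), including the small proteoglycans *Lum* (3.62) and *Dcn* (2.00), and their summed signal was 13637.3, 18718.8 and 30090.8 on C, R8 and R7 of DoD 36, of which *Dcn* made up 19101.0 on R7, and 1333.2 to 6823.3 on DoD 8. *Prrx1* was within 2-fold in each comparison, and *Postn* was detected on 3 arrays. Of 5 markers of parietal endoderm, which makes a thick type IV collagen sheet, all 5 were higher on C of DoD 36 than on C of DoD 8 (median 4.44), and their sum was 40796.8, 31850.7 and 24316.7 on C, R8 and R7 of DoD 36 against 1809.1 to 4740.8 on DoD 8. With R7 on DoD 36, 2 of the 5 were lower than on C and 0 higher, and 0 were lower without scaling. The list holds *Lamb1*, which is also a basement membrane partner. Of 6 cartilage markers, *Sox9*, which glia also express, was higher with R7 on DoD 36 (3.83), *Acan* was not (-0.15), and *Matn3* and *Hapln1* were under the detection level on all 9 arrays, as were the bone markers *Sp7* and *Ibsp*. Of 5 vessel wall markers, 3 of 4 measured were higher with R7 on DoD 36, and their sum was 3929.8, 6075.3 and 8666.2 on C, R8 and R7 against 17610.3 to 27708.9 on DoD 8, carried by *Acta2* with 25681.0 of the highest sum. Of 5 endothelium markers 1 was higher, with sums of 10812.4, 4592.5 and 6123.9, of which *Cdh5* made up 8570.5 on C. Astrocyte markers were higher in 4 of 5 with R7 on DoD 36, and their sum was 1134.8, 8934.2 and 38779.5, of which *Gfap* made up 25398.1 on R7. Neuron markers were higher in 3 of 4 measured with R7 on DoD 8 (median 1.99), among them *Dcx* (4.24) and *Snap25* (2.88). With R7 on DoD 36, 1 of 5, *Map2* (at least 1.86), was higher and 3, *Snap25* (-1.45), *Dcx* (-1.19) and *Elavl3* (-1.12), were lower, with a median of -1.12 and, without scaling, 0 lower. Their summed signal was 1866.1, 3970.5 and 926.3 on C, R8 and R7 of DoD 36 and 420.7 to 1624.0 on DoD 8. The part of any of these cell types in the collagen values was not tested.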

How the data were processed

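The authors deposited log2 values for 9 MouseWG-6 arrays, 1 per condition, median centred in GeneSpring per the paper's methods, and background correction is not given in the sources used here. Each deposited log2 value proved to be the log2 signal less a constant per array and a baseline per probe. Signals were recovered by finding, for each probe, the whole numbers of steps of 0.1 (floor 5.0, both assumed from the values) that give its ratios between arrays. The search was run on data simulated with the same step and floor, which cannot test those assumptions. For 2.45% of probes the level was only approximate. Signals were scaled to the median of 16136 probes detected on all arrays. The level of detection, 30.7, came from the 0.99 quantile of background. Each gene was read from its probe with the highest mean log2 signal. Values under the level were set to it, giving bounds, and no difference was taken between 2 such values. Symbols came from the platform annotation, in which 32794 probes have 1 symbol, 55 several and 13794 none. Of these, 32722 were matched by gene ID to current RefSeq symbols.

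In each comparison up to 4 collagen genes per direction past 2-fold were named, beside the widest-ranging genes of each class, their partner chains and 5 markers (*Col1a1*, *Col1a2*, *Col3a1*, *Col5a1* and *Col6a1*). Members, lists and rules were chosen with earlier results of these data known. A second table of 9 columns whose names match no sample was not used. Promoters are RefSeq, GRCm38.p6. The alternatives were 3 other scalings, detection levels of 50 and 100, the mean of a gene's probes and leaving out 3 genes of approximate level. Python 3.11.15, numpy 2.4.6, pandas 2.3.3, numba 0.67.0 and matplotlib 3.10.9 were used.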

Additional observations from a re-analysis of the deposited data

How the results depend on the processing

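With 1 array per condition the depth of a comparison is its signal over background, and collagen differences near the detection level carry most of the error. No paired analysis was possible because each condition has 1 array. Under the alternatives, the 60 named differences gave 354 values, of which 17 were under 2-fold, and 6 further values could not be had because both arrays were undetected. The 354 values kept their direction, but scalings by 1 constant per array move all genes of a comparison together by less than 2-fold, so that a kept direction is there no sign of stability.

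The counts of collagen genes that moved by over 1.5 times were mostly small counts of dim genes. With a detection level of 50, the number lower was 0 for R9, R8 and R7 against C and for R7 against R8 on DoD 8, and the number higher with R8 there was 2. Of all genes, 0.8%, 1.3%, 2.3% and 1.4% were lower in these comparisons, and 2.0% were higher with R8. With a level of 100 these 4 lower counts were again 0, the number higher on DoD 8 was 1 with R8 and 8 with R7 against C, the number higher on DoD 2 against DoD 0 was 2, and the number lower with R8 between DoD 8 and DoD 36 was 2. Of all genes at that level, 0.3%, 0.7%, 1.7% and 0.8% were lower in the 4 comparisons. On DoD 8, 1.2% were higher with R8 and 4.1% with R7. On DoD 2, 4.6% were higher than on DoD 0, and 13.4% were lower with R8 between DoD 8 and DoD 36. When all probes of a gene were averaged, the number lower for R7 against R8 was 0 on DoD 8 and 1 on DoD 36. Without scaling, 10 collagen genes were lower on C of DoD 36 than on C of DoD 8, and with quantile normalization 1 was higher with R9. The shares of all genes in these settings were 19.2% lower and 1.8% higher. Without the 3 genes of approximate level, an alternative chosen after seeing the data, 3 were higher on C of DoD 8 than on DoD 2. The number higher with R7 against C on DoD 36 was 17 to 19 and the number lower 0 under all alternatives. Over the scalings and detection levels, 11.2% to 19.5% of all genes were higher there and 3.4% to 19.9% lower. Among all genes, leaving out the scaling moved the share of higher calls by over 10 percentage points in several other comparisons: from 57.5% to 46.3% for R9 against C, from 57.9% to 73.1% for DoD 2 against DoD 0, from 60.9% to 76.8% for R7 against R8 on DoD 8, from 53.9% to 65.2% for R7 against R8 on DoD 36 and from 56.1% to 67.1% for R7 on DoD 36 against DoD 8.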
